A study of Mus musculus with 5 samples.

Results

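B2, B3 and B4 elements are short interspersed elements (SINEs) of the mouse genome, and their CpG methylation was compared here across 5 libraries. They were chosen as the repeat entries of class SINE/B2 or SINE/B4 that had a CpG methylation level in all 5 libraries. This gave 4829 entries of 46641 repeat entries, and of 154711 regions and repeats of every kind, listed in all 5. Class SINE/B2 held 1543 of them, in the families B2_Mm1a, B2_Mm1t, B2_Mm2, B3A and B3, and class SINE/B4 held 3286, in the families B4A, B4, RSINE1 and ID_B1. An entry is a family name with a span of that family's consensus sequence, such as positions 1 to 90 of B3A, and no span was listed more than once in a library. It carries no genomic position, so copies that share a span cannot be told apart, and no element can be placed near a gene. The consensus sequences are not given in the files, so none is printed.

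SINEs are retrotransposons that encode no protein and are copied by the enzymes of LINE-1 elements. B2 elements derive from a transfer RNA gene and are transcribed by RNA polymerase III from a promoter inside the element; B3 and B3A are older relatives of B2. B4 elements are older still and join a part related to ID elements, which also come from a transfer RNA, to a part related to B1; ID_B1 and RSINE1 are placed in the same class. CpG methylation holds many retrotransposons silent in somatic cells, and it is lost over most of the genome while germ cells form in the fetus.

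The assay was reduced representation bisulfite sequencing, which digests DNA with MspI, an enzyme that cuts at CCGG whatever the methylation of the inner CpG, and so reads CpG-rich sites. All samples were of the mouse strain C57BL6, with 1 library per group. pESC-PGCLC and ESC-PGCLC are germ cell-like cells made from the pESC and female ESC lines by way of epiblast-like cells (46 h on fibronectin with activin A, bFGF and KSR) and then 4 days of floating culture with BMP4, LIF, SCF and EGF, sorted for CD61 and SSEA1 together; before that the lines were kept in t2iL medium for several passages. PGC are primordial germ cells from the gonads of fetuses at embryonic stage E12.5, enriched with SSEA1 beads, their sex not stated. pESC is a parthenogenetic embryonic stem cell line, made from an egg without sperm, and female ESC a biparental one; both grew on feeder cells with serum and LIF, and whether feeder cells were removed before DNA extraction is not stated. The assay holds no RNA levels, so the labelled cell types could not be checked against marker gene expression.

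With 1 library per group there is no replicate error and no p-value for any difference given here. The deposited values are levels without read counts, so depth is unknown and so is the counting error of each entry. The spread given with a mean is the SD over entries. Female ESC stood apart in listing: it held 4891 of the 6006 B2 and B4 class entries seen in any library, against 5551 in pESC-PGCLC, 5646 in ESC-PGCLC, 5569 in PGC and 5612 in pESC, and 407 entries were missing from female ESC alone. It also had the most entries at exactly 0% or 100%, with 131 of 4829, against 65, 53, 31 and 49 in pESC-PGCLC, ESC-PGCLC, PGC and pESC. What part this played in the differences from female ESC was not tested.

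B2 and B4 class elements were partly methylated in every library, and the order of the libraries was PGC lowest and female ESC highest. Their mean level was 36.1% ± 18.5 in pESC-PGCLC, 38.2% ± 19.5 in ESC-PGCLC, 34.0% ± 16.4 in PGC, 39.2% ± 19.5 in pESC and 43.1% ± 22.6 in female ESC (SD over 4829 entries). The library means thus spanned 9.07 points, less than the SD over entries within any 1 library. The middle 50% of entries lay between 23.3% and 49.0% in pESC-PGCLC, 24.7% and 51.9% in ESC-PGCLC, 22.6% and 45.1% in PGC, 26.1% and 52.9% in pESC, and 27.5% and 58.9% in female ESC. These ranges overlapped in all 5 libraries, and that of PGC was the narrowest. Female ESC was the highest library at 58.5% of entries and PGC the lowest at 49.2%, while 702 entries (14.5%) held the full order of the means, PGC below pESC-PGCLC below ESC-PGCLC below pESC below female ESC. The same shares over all repeat entries were not computed, so these cannot be called particular to B2 and B4 class elements.

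The classes were alike. SINE/B2 averaged 36.9% in pESC-PGCLC, 39.0% in ESC-PGCLC, 35.0% in PGC, 40.3% in pESC and 44.0% in female ESC, and SINE/B4 averaged 35.7%, 37.9%, 33.6%, 38.7% and 42.7% in the same libraries. Both classes lay below the mean of all repeat entries, which was 43.2% in pESC-PGCLC, 45.3% in ESC-PGCLC, 40.8% in PGC, 46.3% in pESC and 50.2% in female ESC. They lay above B1, the SINE family that derives from the 7SL RNA gene, in each library, with B1 at 33.8%, 35.3%, 31.9%, 36.5% and 39.7% over 3013 entries. MIR, a much older SINE family, was lower again, at 32.1%, 34.2%, 30.03%, 35.0% and 39.4% over 1600 entries.

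**Figure D1:**
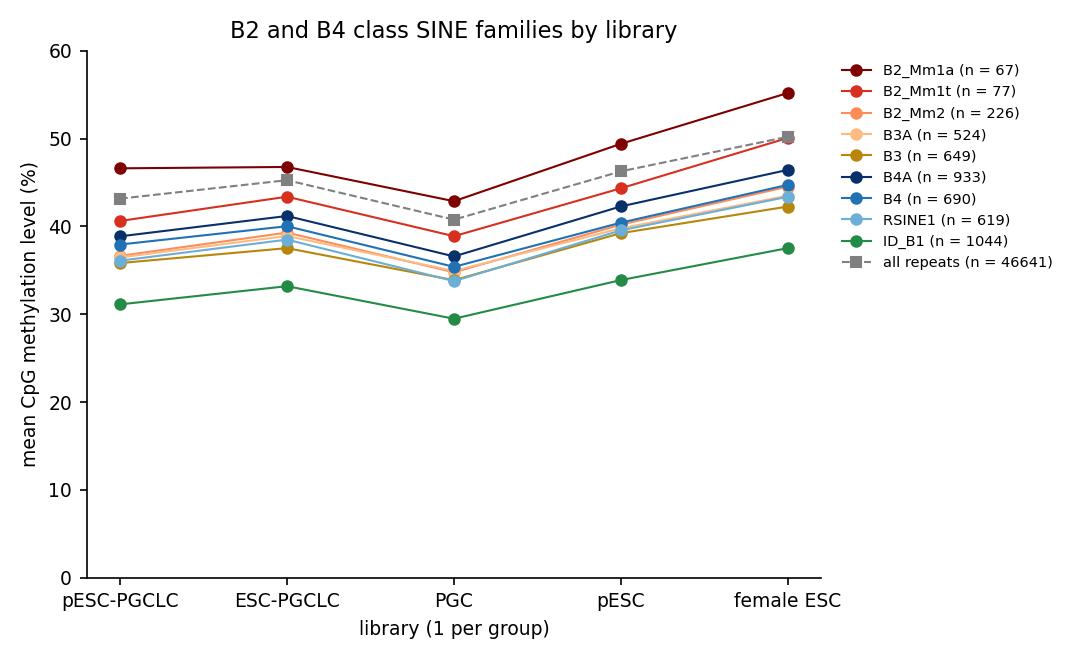
Mean CpG methylation level (percent) of the 9 families of class SINE/B2 and SINE/B4 in the 5 libraries, 1 point per family and library, with all repeat entries as grey squares; n is the number of entries and no error is drawn because each group has 1 library. B2_Mm1a (46.6% in pESC-PGCLC, 55.2% in female ESC) is the top line and ID_B1 (31.1% in pESC-PGCLC, 37.5% in female ESC) the bottom line in every library.

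Among the B2 families, B2_Mm1a and B2_Mm1t were the most methylated, and B2_Mm1a was the only family of the 9 above the mean of all repeats in each library. B2_Mm1a, with 67 entries, averaged 46.6% in pESC-PGCLC, 46.8% in ESC-PGCLC, 42.9% in PGC, 49.4% in pESC and 55.2% in female ESC. B2_Mm1t, with 77 entries, averaged 40.6%, 43.4%, 38.9%, 44.3% and 50.1% in the same order of libraries. B2_Mm2, with 226 entries, averaged 36.6%, 39.3%, 34.8%, 40.2% and 44.5%. The 3 families named B2 thus kept the order B2_Mm1a, B2_Mm1t, B2_Mm2 in each library, with gaps that were smaller than the SD over the entries of each (between 14.9 and 22.5 points).

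The B3 families lay near B2_Mm2. B3A, with 524 entries, averaged 36.5% in pESC-PGCLC, 38.9% in ESC-PGCLC, 34.9% in PGC, 39.8% in pESC and 43.5% in female ESC. B3, with 649 entries, averaged 35.8%, 37.5%, 33.9%, 39.2% and 42.3%. B3A was above B3 in each library, by between 0.549 points (pESC) and 1.38 points (ESC-PGCLC).

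In the B4 class the families ran from B4A at the top to ID_B1 at the bottom. B4A, with 933 entries, averaged 38.9% in pESC-PGCLC, 41.2% in ESC-PGCLC, 36.6% in PGC, 42.3% in pESC and 46.4% in female ESC. B4, with 690 entries, averaged 37.9%, 40%, 35.4%, 40.4% and 44.7%. RSINE1, with 619 entries, averaged 36.1%, 38.5%, 33.8%, 39.6% and 43.4%. ID_B1, the family with the most entries (1044), was the least methylated in every library, at 31.1%, 33.2%, 29.5%, 33.9% and 37.5%, and lay between 4.28 points (PGC) and 5.34 points (pESC) below the next family. Unlike the mean of its class, and alone among these families, ID_B1 lay below B1 in each library, and it lay below MIR too. The order of the families was the same in pESC-PGCLC, ESC-PGCLC, pESC and female ESC: B2_Mm1a, B2_Mm1t, B4A, B4, B2_Mm2, B3A, RSINE1, B3 and ID_B1. In PGC B3A (34.9%) stood above B2_Mm2 (34.8%) and B3 (33.9%) above RSINE1 (33.8%), neighbours whose order is far inside the spread over their entries.

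Entries almost free of methylation were a minor group and were most frequent in ID_B1. Below 10% in all 5 libraries were 301 of 4829 entries (6.23%), against 4.06% of all repeat entries and 8.73% of B1 entries. In ID_B1 they numbered 117 of 1044 (11.2%), in RSINE1 41 of 619 (6.62%), in B3 35 of 649 (5.39%), in B4 34 of 690 (4.93%), in B3A 23 of 524 (4.39%), in B4A 40 of 933 (4.29%) and in B2_Mm2 8 of 226 (3.54%). Only 2 of 77 B2_Mm1t entries and 1 of 67 B2_Mm1a entries were of this kind. At the other end, 5 of the 4829 entries (0.104%) were at 80% or more in all 5 libraries, against 0.472% of all repeat entries. Entries at 80% or more in a single library numbered 46 in pESC-PGCLC, 63 in ESC-PGCLC, 17 in PGC, 58 in pESC and 212 in female ESC, which is 0.953%, 1.30%, 0.352%, 1.20% and 4.39% of them, against 1.64%, 2.21%, 0.817%, 2.34% and 5.54% of all repeat entries. Female ESC held the most and PGC the fewest in both. Entries below 10% in a single library were also most in female ESC (566, 11.7%) and fewest in PGC (455, 9.42%). Over all repeat entries these shares were 7.12% and 6.02%, with pESC the highest at 7.15%. Female ESC thus held the most B2 and B4 class entries at both ends of the scale. Whether the low entries lie in CpG islands or promoters cannot be seen, since no position is given.

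The level was also compared by the part of the consensus that an entry covers. In class SINE/B4, entries that begin at positions 1 to 5 of the consensus averaged 36.8% in pESC-PGCLC, 39.3% in ESC-PGCLC, 34.6% in PGC, 40.2% in pESC and 44.5% in female ESC (1111 entries). Those that begin at positions 101 to 250, which lack the 5′ part, averaged 32.0%, 33.8%, 30.3%, 34.8% and 38.0% (321 entries). They were lower in all 5 libraries, and the same held within B4A (35.4%, 36.8%, 33.5%, 39.3% and 41.8% against 39.1%, 41.4%, 36.5%, 42.5% and 47.0%), within B4 and within ID_B1. The late starts were also shorter, with a median span of 108 against 184 bases, and levels in this class were higher in long spans (38.4% for 201 to 300 bases, against 33.9% for 51 to 100 bases, in pESC-PGCLC). Among spans of 51 to 100 bases, a split chosen after seeing the data, late starts averaged 32.5% and early starts 35.6% in pESC-PGCLC, with 38.6% and 42.5% in female ESC (120 and 132 entries). Among spans of 101 to 150 bases the means were 28.2% and 36.7% in pESC-PGCLC and 33.9% and 43.9% in female ESC (122 and 240 entries). Among spans of 151 to 200 bases late starts were higher in all 5 libraries, with 37.9% against 35.9% in pESC-PGCLC and 44.7% against 43.2% in female ESC (65 and 253 entries). The lower level of late starts thus did not hold in every range of span. Families were pooled in these splits by span. Over all spans, 267 of the 1111 early starts were of RSINE1 (median span 132 bases). Of the 321 late starts, 131 were of ID_B1 (median span 98 bases), the least methylated family. Family and start thus cannot be told apart within a range of span. In class SINE/B2 the corresponding means were 41.5%, 39.2%, 38.1%, 40.8% and 44.6% for late starts (53 entries) against 37.5%, 39.9%, 35.6%, 41.1% and 44.98% for early starts (808 entries), so late starts were higher in pESC-PGCLC and PGC and lower in the other libraries.

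**Figure D2:**
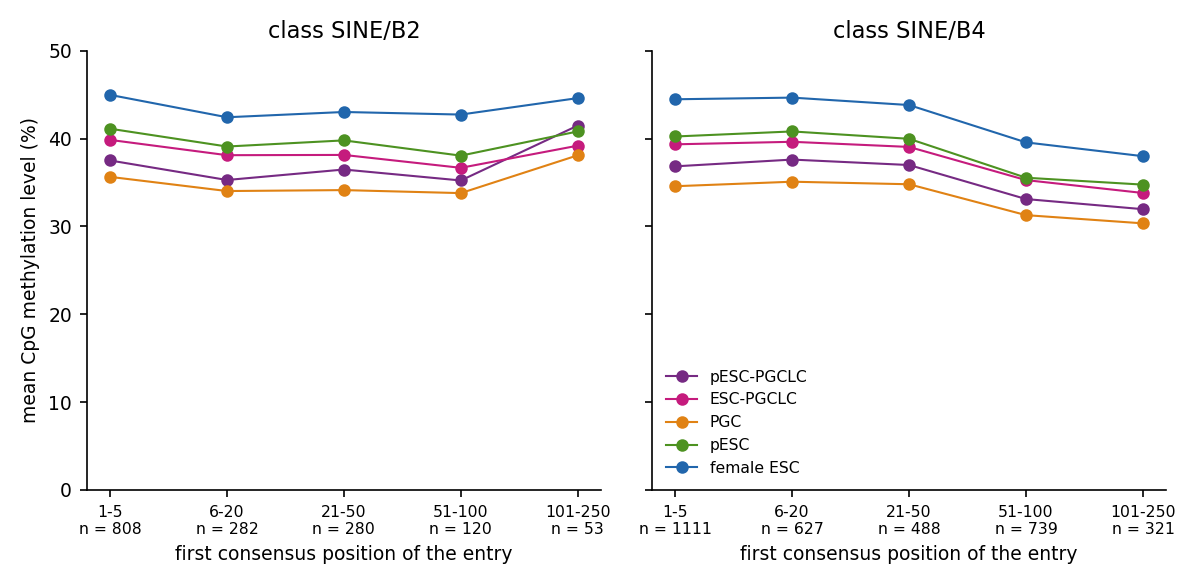
Mean CpG methylation level (percent) by the first consensus position of an entry, for class SINE/B2 (left) and class SINE/B4 (right), 1 line per library and n entries in each range of positions. The SINE/B4 lines are lower for entries that begin after position 50 (39.6% in female ESC for starts from 51 to 100, against 44.5% for starts from 1 to 5). The SINE/B2 lines are lower by less for starts from 51 to 100 (42.7% against 44.98% in female ESC). For starts from 101 to 250 the SINE/B2 lines of pESC-PGCLC (41.5% against 37.5%) and PGC (38.1% against 35.6%) are higher than for starts from 1 to 5.

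The differences of long spans were spread less widely over entries than those of short ones, while their mean was not smaller (PGC minus female ESC averaged -9.72 points for spans of 201 to 300 bases and -8.79 points for spans of 51 to 100 bases). The SD over entries of the difference between pESC and female ESC was 8.04 points for spans of 201 to 300 bases (1191 entries) and 11.3 points for spans of 51 to 100 bases (704 entries). For pESC-PGCLC against ESC-PGCLC these SDs were 6.20 and 8.19 points. Across the 4829 entries the levels of any pair of libraries had a Pearson's r between 0.861 (PGC and female ESC) and 0.930 (ESC-PGCLC and pESC), a description over entries that share a library and that are not replicates.

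pESC was set against female ESC to see how a line with no paternal genome compares with a line from both parents. All 9 families were less methylated in pESC. All entries together averaged 39.2% in pESC, against 43.1% in female ESC, a mean difference of -3.88 points (SD over entries 9.94), beside -3.94 points over all repeat entries. Entries were lower in pESC at 3413 of 4829 (70.7%, against 76.6% of all repeats). The family differences ran from -5.79 points in B2_Mm1a and -5.73 points in B2_Mm1t to -3.03 points in B3. As a share of the level in female ESC, pESC held 89.5% in B2_Mm1a, 88.6% in B2_Mm1t, 92.8% in B3 and 91.0% over all families together, beside 92.2% for all repeats.

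A few entries differed much more. The entries at least 25 points higher in pESC numbered 48 (0.994%, against 0.753% of all repeats) and those at least 25 points lower 113 (2.34%, against 1.69%). With the shift of all repeat entries taken out as a factor, 52 were higher and 59 lower. Shares over all repeat entries with the same factor were not computed, here or in the comparisons below. The B4A entry at consensus positions 90 to 279 had 55.6% in pESC, against 7.14% in female ESC, and the B4 entry at 217 to 292 had 45.5% against 5.00%. In the opposite direction the B4 entry at 109 to 289 had 4.00% in pESC, against 80% in female ESC, and the ID_B1 entry at 105 to 219 had 25% against 83.3%. Entries this far apart had shorter spans than the rest, with a median of 144 against 161 bases, and 39 of the 161 (24.2%) stood at exactly 0% or 100% in 1 of the libraries compared, against 2.53% of the others. The part of low coverage in these calls was not tested.

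**Figure D3:**
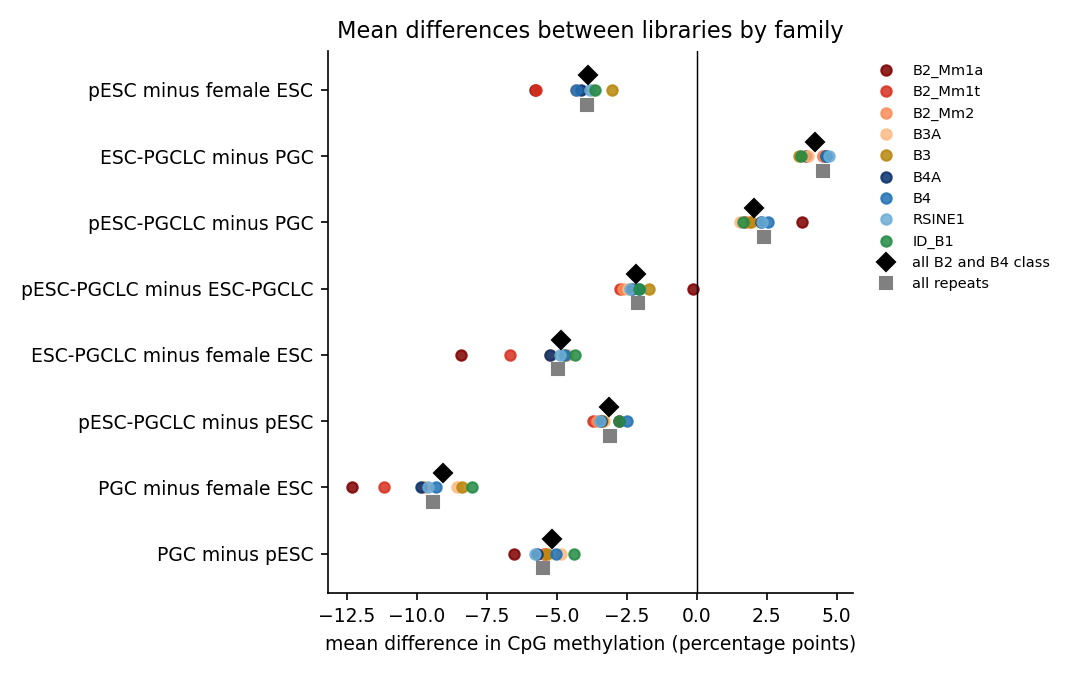
Mean difference in CpG methylation (percentage points) for the 8 comparisons, the library named first minus the library named second; coloured points are the 9 families, black diamonds all B2 and B4 class entries and grey squares all repeat entries. The diamonds lie at most 0.371 points from the squares, and B2_Mm1a stands apart at -0.16 points in pESC-PGCLC minus ESC-PGCLC and at -8.43 points in ESC-PGCLC minus female ESC. In the 55 of the 67 B2_Mm1a entries that begin at positions 1 to 5, the means were 45.3% in pESC-PGCLC and 46.9% in ESC-PGCLC.

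Induction of germ cell-like cells was compared with the stem cell line of origin. The stem cell libraries grew on feeder cells with serum and LIF, and the lines were kept in t2iL medium before induction. Medium, feeder cells and induction thus cannot be told apart in these differences. In the biparental line all 9 families were lower after induction, with a mean of 38.2% in ESC-PGCLC and 43.1% in female ESC, a mean difference of -4.85 points (SD over entries 10.1), beside -4.95 points over all repeats. Entries were lower at 3548 of 4829 (73.5%, against 79.6% of all repeats). B2_Mm1a had the widest family difference, -8.43 points, followed by B2_Mm1t at -6.69 points, and ID_B1 the narrowest, -4.34 points. At least 25 points higher in ESC-PGCLC were 52 entries (1.08%, against 0.804% of all repeats) and lower were 126 (2.61%, against 2.23%), or 54 and 72 with the shift of all repeats taken out. The B4 entry at 1 to 282 had 50.3% in ESC-PGCLC, against 2.94% in female ESC, and the B3A entry at 3 to 94 had 94.4% against 50.0%. The B3 entry at 9 to 146 had 33.9% in ESC-PGCLC, against 91.7% in female ESC, and the B4 entry at 109 to 289 had 25% against 80%.

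In the parthenogenetic line all 9 families were lower after induction too, by less. All entries together averaged 36.1% in pESC-PGCLC, against 39.2% in pESC, a mean difference of -3.14 points (SD over entries 7.66), beside -3.11 points over all repeats. Entries were lower at 3406 of 4829 (70.5%, against 73.5% of all repeats). Family differences ran from -3.72 points in B2_Mm1t to -2.49 points in B4. In pESC-PGCLC 20 entries were at least 25 points higher (0.414%, against 0.339% of all repeats) and 40 lower (0.828%, against 0.879%). With the shift of all repeats taken out 31 were higher and 25 lower, so the balance turned. Whether it turned over all repeats too was not computed. The B3 entry at 108 to 214 had 85.7% in pESC-PGCLC, against 33.3% in pESC, and the B3A entry at 1 to 90 had 66.7% against 14.3%. The B2_Mm2 entry at 7 to 102 had 16.7% in pESC-PGCLC, against 70% in pESC, and the B4 entry at 1 to 100 had 21.4% against 65.4%.

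The difference between the induction changes was 1.71 points (SD over entries 11.7), the parthenogenetic line having the smaller change, beside 1.83 points over all repeats. By construction it equals the gap between the lines after induction (-2.16 points) minus the gap between the stem cell lines (-3.88 points). It is thus not independent of those comparisons. The difference between the changes was positive in each of the 9 families, from 1.27 points in B3A to 5.63 points in B2_Mm1a, where the change was -2.80 points in the parthenogenetic line and -8.43 points in the biparental line. It was narrower in the 55 B2_Mm1a entries that begin at positions 1 to 5. These averaged 45.3% in pESC-PGCLC and 49.2% in pESC, with 46.9% in ESC-PGCLC and 54.5% in female ESC. Lower after induction in both lines were 2686 entries (55.6%), against 61.6% of all repeats. Whether the changes differ beyond the spread between samples could not be tested with 1 library each.

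The lines were also compared after induction. pESC-PGCLC had a mean of 36.1% and ESC-PGCLC of 38.2%, a mean difference of -2.16 points (SD over entries 7.41), beside -2.10 points over all repeats. Entries were lower in pESC-PGCLC at 3149 of 4829 (65.2%, against 66.2% of all repeats). Of the 9 families, 8 differed by between -2.76 points (B2_Mm1t) and -1.70 points (B3), while B2_Mm1a had 46.6% in pESC-PGCLC, against 46.8% in ESC-PGCLC, a mean difference of -0.16 points and a median of -0.65 points over 67 entries. The 55 B2_Mm1a entries that begin at positions 1 to 5 averaged 45.3% in pESC-PGCLC and 46.9% in ESC-PGCLC. The near equality over all 67 thus depends on the entries that begin later. Of the entries, 26 were at least 25 points higher in pESC-PGCLC (0.538%, against 0.459% of all repeats) and 38 lower (0.787%, against 0.823%). With the shift taken out 29 were higher and 24 lower, so the balance turned. Whether it turned over all repeats too was not computed. The ID_B1 entry at 35 to 221 had 83.3% in pESC-PGCLC, against 16.7% in ESC-PGCLC, and the B2_Mm1a entry at 43 to 191 had 79.2% against 30.6%. The B4 entry at 1 to 100 had 21.4% in pESC-PGCLC, against 85.7% in ESC-PGCLC, and the B2_Mm2 entry at 7 to 102 had 16.7% against 66.7%.

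Set against germ cells of the fetus, ESC-PGCLC was the more methylated library in all 9 families. All entries together averaged 38.2% in ESC-PGCLC, against 34.0% in PGC, a mean difference of 4.22 points (SD over entries 7.85), beside 4.49 points over all repeats. Entries were higher in ESC-PGCLC at 3519 of 4829 (72.9%, against 78.0% of all repeats), and family differences ran from 3.65 points in B3 to 4.73 points in RSINE1. At least 25 points higher in ESC-PGCLC were 57 entries (1.18%, against 1.13% of all repeats) and lower were 13 (0.269%, against 0.283%), or 39 and 17 with the shift taken out. The B3 entry at 51 to 201 had 87.5% in ESC-PGCLC, against 20.0% in PGC, and the B2_Mm2 entry at 2 to 145 had 89.5% against 25%. The B4 entry at 150 to 223 had 34.8% in ESC-PGCLC, against 76.2% in PGC, and the ID_B1 entry at 11 to 211 lay 41.3 points below the 53.8% of PGC.

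pESC-PGCLC lay closer to PGC. The B2 and B4 class entries averaged 36.1% in pESC-PGCLC, against 34.0% in PGC, a mean difference of 2.05 points (SD over entries 7.30), beside 2.39 points over all repeats, and all 9 families were higher in pESC-PGCLC, by between 1.53 points (B3A) and 3.74 points (B2_Mm1a). Entries were higher at 3111 of 4829 (64.4%, against 68.3% of all repeats). Of the entries, 39 were at least 25 points higher in pESC-PGCLC (0.808%, against 0.802% of all repeats) and 15 lower (0.311%, against 0.377%), or 33 and 21 with the shift taken out. The B3A entry at 1 to 79 had 62.5% in pESC-PGCLC, against 5.56% in PGC, and the B3 entry at 51 to 201 had 71.4% against 20.0%. The RSINE1 entry at 61 to 163 had 27.3% in pESC-PGCLC, against 70% in PGC, and the B4A entry at 8 to 196 had 40% against 80%. ESC-PGCLC and pESC-PGCLC share the PGC library in these comparisons, so the 4.22 and 2.05 points are not independent.

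PGC was lower than either stem cell line in all 9 families. Against female ESC the means were 34.0% in PGC and 43.1% in female ESC, a mean difference of -9.07 points (SD over entries 11.9), beside -9.44 points over all repeats, with 3840 entries lower (79.5%, against 86.5% of all repeats). B2_Mm1a differed by -12.3 points and B2_Mm1t by -11.2 points, the widest of the families, and ID_B1 by -8.04 points, the narrowest. As a share of the level in female ESC, PGC held between 77.7% (B2_Mm1a, with B2_Mm1t at 77.7% also) and 80.3% (B3A), so the families differed little in proportion. The same share was 79.0% over all B2 and B4 class entries, 80.4% in B1, 76.1% in MIR, 82.7% in LINE-1 and 83.1% in ERVK retroviruses, beside 81.2% for all repeats. At least 25 points higher in PGC were 38 entries (0.787%, against 0.583% of all repeats) and lower were 304 (6.30%, against 5.12%), or 51 and 66 with the shift taken out. The RSINE1 entry at 61 to 163 had 70% in PGC, against 20.0% in female ESC, and the B4 entry at 1 to 282 had 49.3% against 2.94%. The RSINE1 entry at 11 to 119 had 26.9% in PGC, against 94.1% in female ESC, and the B3A entry at 92 to 179 had 17.6% against 83.3%.

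Against pESC the means were 34.0% in PGC and 39.2% in pESC, a mean difference of -5.19 points (SD over entries 7.91), beside -5.50 points over all repeats, with 3697 entries lower (76.6%, against 81.6% of all repeats). Family differences ran from -6.54 points in B2_Mm1a to -4.40 points in ID_B1. In proportion, PGC held between 85.4% (RSINE1) and 87.8% (B3A) of the level in pESC. This share was 86.8% in B2_Mm1a and 87.0% in ID_B1, beside 88.1% for all repeats. In PGC 10 entries were at least 25 points higher (0.207%, against 0.195% of all repeats) and 58 lower (1.20%, against 1.19%), or 17 and 18 with the shift taken out. The B3A entry at 1 to 90 had 83.3% in PGC, against 14.3% in pESC, and the B3 entry at 102 to 216 had 88.9% against 42.4%. The B2_Mm2 entry at 1 to 126 had 20.0% in PGC, against 68.8% in pESC, and the B3 entry at 31 to 215 had 26.5% against 73.7%.

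The difference between PGC and female ESC was set against the level of the entry. Entries were grouped by their mean over the 5 libraries, which includes both libraries compared. In the range above 40% and up to 50%, the 1065 B2 and B4 class entries averaged 39.2% in PGC and 51.1% in female ESC, a difference of -11.9 points, beside -12.3 points in B1 and -10.5 points in all other repeats. Above 50% and up to 60%, 787 entries averaged 47.8% in PGC and 62.6% in female ESC, a difference of -14.7 points, beside -15.4 points in B1 and -13.0 points in all other repeats, their widest. Above 60% and up to 70%, 366 entries averaged 56.3% in PGC and 73.0% in female ESC, a difference of -16.8 points, beside -15.0 points in B1 and -12.0 points in all other repeats. Above 70%, 167 entries differed by -15.7 points, beside -16.2 points in B1 and -10.2 points in all other repeats. The difference of the B2 and B4 class entries thus widened with the level up to 70% and was narrower above it. In the ranges above 60% these entries lay closer to B1 than to the other repeats, which include B1. Above 30% and up to 40% they lay closer to the other repeats, with -9.36 points, beside -8.24 points in B1 and -9.38 points in all other repeats. The same held above 20% and up to 30%, with -5.16 points, beside -3.40 points in B1 and -5.88 points in all other repeats. No test of these gaps is possible with 1 library per group.

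**Figure D4:**
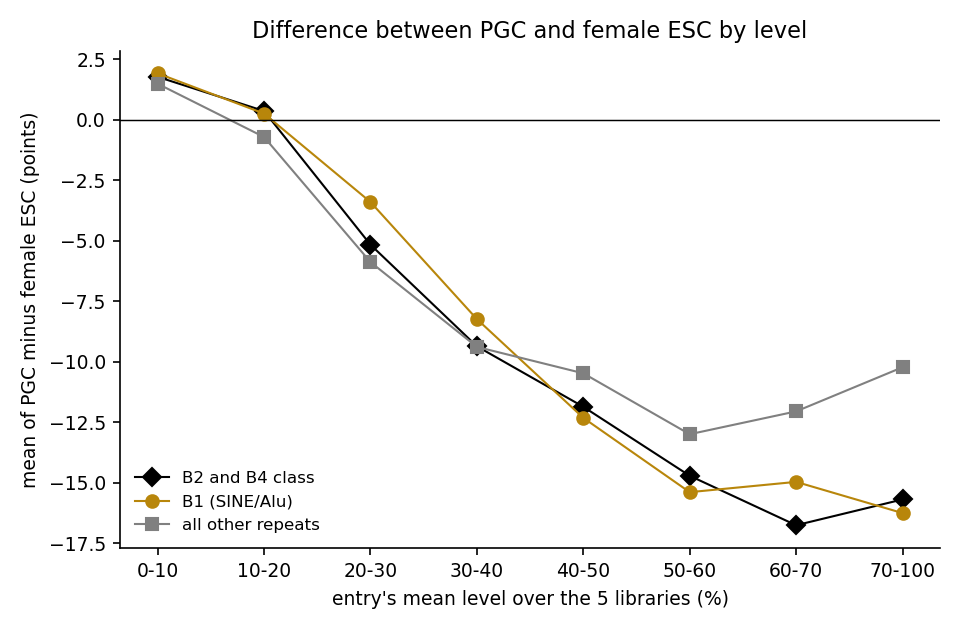
Mean of PGC minus female ESC (percentage points) for entries grouped by their mean CpG methylation over the 5 libraries (percent), for B2 and B4 class entries (black diamonds), B1 entries (yellow-brown circles) and all other repeat entries, B1 included (grey squares). The black line goes from 1.77 points in the lowest group to -16.8 points between 60% and 70%, where all other repeats stand at -12.0 points.

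Cytosines outside CpG were almost free of methylation in these elements. In the CHH context, where H is any base but G, the mean was 0.780% in pESC-PGCLC, 0.797% in ESC-PGCLC, 0.729% in PGC, 0.622% in pESC and 0.658% in female ESC over 5023 entries listed in all 5 libraries. In the CHG context it was 1.02%, 1.04%, 0.916%, 0.878% and 0.926% over 5027 entries. Both contexts were highest in the germ cell-like libraries, an order unlike that of CpG, and such levels measure unconverted bases as well as non-CpG methylation. Taking the CHH mean out of the CpG level left every mean difference within 0.156 points of its value.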

How the data were processed

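Genomic DNA of 5 mouse samples, 1 library per group, was digested with MspI, treated with bisulfite and sequenced in pairs, per the labels' protocols. The build mm10 and the tools Bowtie2 and Bismark, version 0.16.3, are named per the submitters' processing notes. Read filters, the repeat annotation and the way reads were summed over copies are not given in the sources. The authors deposited, for each region and cytosine context, the methylated fraction (0 to 1) and no read counts, so depth is unknown and no interval could be computed. Levels were multiplied by 100 and are printed as percent.

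Entries of class SINE/B2 or SINE/B4 listed in all 5 libraries were used (Python 3.11.15, pandas 2.3.3). The 8 comparisons give the mean of the differences per entry, and a call of at least 25 percentage points with no test. Calls of at least 25 points, without the shift taken out, are read against all 46641 repeat entries. Families with at least 20 entries are given singly; up to 2 called entries per direction with the largest difference, none at exactly 0% or 100% in the libraries compared, are named. The entries, families and alternatives were chosen with earlier results of these data known.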

Additional observations from a re-analysis of the deposited data

Results flagged for a closer look

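A pair of named entries had induction changes of at least 25 points in opposite directions in the lines. The B2_Mm1a entry at consensus positions 43 to 191 was 42.3 points higher in pESC-PGCLC than in pESC (79.2% against 36.9%) and differed by -36.0 points between ESC-PGCLC and female ESC (30.6% against 66.7%). The B3A entry at positions 1 to 90 was 52.4 points higher in pESC-PGCLC than in pESC (66.7% against 14.3%) and differed by -27.3 points between ESC-PGCLC and female ESC (72.7% against 100%), the last a level at the limit of the scale. PGC stood at 50.0% at the first of these entries and at 83.3% at the second. Neither difference was tested, since each rests on 4 single libraries and on levels of unknown depth.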

How the results depend on the processing

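Each mean difference was recomputed with 1 choice changed at a time, and a move of 1 point or more was counted, as neither a replicate error nor a counting interval exists. None of the 71 recomputed mean differences changed sign, and 62 moved by less than 1 point. These used medians, families weighted equally, entries listed in the libraries compared, no entries at exactly 0% or 100% in any library, or CHH taken out. Others of the 62, chosen after seeing the data, used spans of at least 100 bases or left out ID_B1. Taking the shift of all repeat entries out as a factor left -0.50 points for pESC against female ESC, 0.47 for ESC-PGCLC and 0.054 for pESC-PGCLC against PGC, -0.39 for pESC-PGCLC against ESC-PGCLC, -0.61 for ESC-PGCLC against female ESC, -0.50 for pESC-PGCLC against pESC, and -0.97 and -0.53 for PGC against female ESC and pESC; by construction this removes what these elements share with all repeats. As a share of the level in the stem cell library, pESC-PGCLC held 92.0% of that in pESC and ESC-PGCLC 88.7% of that in female ESC, a gap of 3.26 points.

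In the same order of comparisons (pESC against female ESC, ESC-PGCLC against PGC, pESC-PGCLC against PGC, pESC-PGCLC against ESC-PGCLC, ESC-PGCLC against female ESC, pESC-PGCLC against pESC, PGC against female ESC and PGC against pESC), the entries at least 25 points apart numbered 161, 70, 54, 64, 178, 60, 342 and 68. At 40 points they numbered 40, 13, 10, 15, 35, 13, 72 and 9, and at 10 points 1185, 1033, 692, 655, 1367, 807, 2547 and 1236. Shares over all repeat entries were not computed at 40 or 10 points, nor for the other recomputed counts below. The values show only how the counts depend on the choices made. Entries listed in the libraries compared, whether or not in the rest, gave 145 for ESC-PGCLC against PGC, 127 for pESC-PGCLC against PGC, 127 for pESC-PGCLC against ESC-PGCLC, 126 for pESC-PGCLC against pESC and 152 for PGC against pESC. The entries this adds were called more often than those listed in all 5 libraries: between 11.0% (63 of 572, pESC-PGCLC against ESC-PGCLC) and 14.6% (84 of 576, PGC against pESC) of them in these comparisons, against between 1.12% and 1.45% of the 4829. The cause was not tested, and whether added entries of all repeats behave alike was not computed. Without the entries at exactly 0% or 100% in any of the 5 libraries, pESC-PGCLC against PGC gave 35. Of its 54 calls, 8 stood at such a level in either library compared. With the shift taken out, PGC gave 117 against female ESC and 35 against pESC. The other 32 recomputed counts stayed within 1.5 times. No paired analysis was possible because each group has 1 library. No replicate could be left out for the same reason.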

Other observations

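Entries with little methylation ran in a different order from all entries together. The 507 B2 and B4 class entries with a mean of at most 10% over the 5 libraries averaged 5.62% in pESC-PGCLC, 4.91% in ESC-PGCLC, 6.76% in PGC, 4.97% in pESC and 4.98% in female ESC, so PGC had the highest mean here and the lowest over all entries. PGC was the highest of the 5 libraries at 184 of the 507 (36.3%). The mean used to pick these entries includes PGC. PGC was above female ESC at 324 of the 507 (63.9%) and above pESC at 332 (65.5%), against 20.2% and 23.0% of all 4829 entries. By family, the 178 ID_B1 entries of this kind averaged 6.58% in PGC and 4.79% in female ESC, the 66 B3 entries 7.02% and 4.60%, the 71 B4A entries 7.01% and 5.05%, and the 60 RSINE1 entries 5.36% and 4.77%. In RSINE1 PGC was above female ESC at 28 of the 60 entries (46.7%), so most entries did not share the direction of the means. In the CHH context, over the 482 of these low entries listed there, the means were 0.761% in pESC-PGCLC, 0.773% in ESC-PGCLC, 0.677% in PGC, 0.575% in pESC and 0.579% in female ESC. In the CHG context, over 491 of them, they were 0.893%, 0.893%, 0.888%, 0.770% and 0.936%. The part of unconverted bases in the CpG order was not tested. Low entries of B1 had the same direction (6.31% in PGC, 4.39% in female ESC, 425 entries). So did those of all other repeats, B1 included (6.19% and 4.70%, 2530 entries). In the next range, above 10% and up to 20%, the 421 B2 and B4 class entries averaged 15.3% in PGC and 15.0% in female ESC. There pESC had the highest mean (15.6%), and PGC was above female ESC at 217 entries (51.5%).

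The share of entries with a level in all 5 libraries, among those with a level in any, was 80.4% for the B2 and B4 classes, and it ran from 74.6% in B2_Mm2 to 85.6% in B2_Mm1t. The 1177 entries left out for this reason are not described here.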
